A study of Homo sapiens with 24 samples.

Results

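Linker histones of the H1 family bind nucleosomes where DNA enters and leaves the core particle and help chromatin to fold into compact states. The HIST1 cluster on human chromosome 6 holds 6 genes that encode them, HIST1H1A, HIST1H1B, HIST1H1C, HIST1H1D, HIST1H1E and HIST1H1T. The messages of these genes other than HIST1H1T are made in S phase, like those of the core histones. They end in a short stem-loop in place of a poly(A) tail. The stem-loop binding protein SLBP holds that stem-loop through processing, export and translation. HIST1H1C (protein H1.2) and HIST1H1E (H1.4) are the widely expressed somatic variants, HIST1H1D (H1.3) and HIST1H1B (H1.5) are further somatic variants, HIST1H1A encodes H1.1, and HIST1H1T encodes the testis variant of male germ cells.

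The members were chosen by position: same-strand peaks of 7 eCLIP lists with 1 nt or more inside 1 of 6 windows on hg19 chromosome 6. The windows lay at 26055901 to 26056800 for HIST1H1C (minus strand), 26156501 to 26157400 for HIST1H1E (plus), 26234401 to 26235300 for HIST1H1D (minus), 26107601 to 26108400 for HIST1H1T (minus), 26017201 to 26018100 for HIST1H1A (minus) and 27834501 to 27835400 for HIST1H1B (minus). Their ends are rounded to 100 nt and were not checked against an hg19 annotation, so exons and transcript ends are not placed here. Of 269336 peaks in the 7 lists, 84 were members.

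In eCLIP, RNA crosslinked to a protein by ultraviolet light is precipitated with an antibody and sequenced beside an input library made without the precipitation. All libraries came from unsorted lysate of 293T, a human embryonic kidney line that carries the SV40 large T antigen, after crosslinking at 254 nm with 400 mJ/cm2. Antibodies were directed against SLBP (MBL, 4 libraries) and RBFOX2, a splicing regulator (Bethyl, 2 libraries), and an isotype control IgG (Thermo Fisher) gave 1 library. RNase I, which trims the RNA before precipitation, was used at 40 U in SLBP replicates 1 and 2, both RBFOX2 libraries and IgG, and at 5 U in SLBP replicates 3 and 4. Nothing in the labels ties replicates to separate cultures, so the spread between them may be technical.

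The lists held 10122 to 23034 peaks for SLBP, 74902 and 97594 for RBFOX2 and 28361 for IgG. Each peak carries the authors' log2 fold of precipitated over input RNA and their −log10 p-value; read depth is unknown. A peak is called enriched here at a −log10 p of at least 5 and a log2 fold of at least 3, which is 8-fold over input. The fold is relative to each library's own input; how many cells were in S phase and how much histone RNA each cell held cannot be told apart in such lysates.

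The 6 genes share promoter elements, shown here because the choice of members by position did not use them. RefSeq promoter sequences (GRCh38.p14, a build other than that of the peaks) were found for all 6. Each line gives the 130 bases before the RefSeq start, on the gene's strand, with 3 motifs in capitals. These are the H1 box with the letters AAACACA, the CCAAT box and the TATA that stands nearest to the start.
HIST1H1C (H1-2), chr6:26056471-26056600, minus strand: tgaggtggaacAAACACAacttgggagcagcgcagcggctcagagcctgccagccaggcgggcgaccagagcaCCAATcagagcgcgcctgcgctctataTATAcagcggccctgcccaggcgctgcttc
HIST1H1E (H1-4), chr6:26156199-26156328, plus strand: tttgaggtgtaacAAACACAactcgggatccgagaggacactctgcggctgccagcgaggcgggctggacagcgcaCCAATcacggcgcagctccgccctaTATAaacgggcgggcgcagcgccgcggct
HIST1H1D (H1-3), chr6:26234988-26235117, minus strand: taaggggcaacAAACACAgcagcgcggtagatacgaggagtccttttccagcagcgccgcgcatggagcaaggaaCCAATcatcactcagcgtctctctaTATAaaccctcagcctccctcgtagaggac
HIST1H1T (H1-6), chr6:26108136-26108265, minus strand: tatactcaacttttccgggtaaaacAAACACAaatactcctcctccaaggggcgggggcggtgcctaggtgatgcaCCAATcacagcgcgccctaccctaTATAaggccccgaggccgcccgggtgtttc
HIST1H1A (H1-1), chr6:26017788-26017917, minus strand: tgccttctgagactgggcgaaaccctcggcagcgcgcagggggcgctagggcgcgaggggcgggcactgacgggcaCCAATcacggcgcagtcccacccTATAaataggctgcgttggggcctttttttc
HIST1H1B (H1-5), chr6:27867589-27867718, minus strand: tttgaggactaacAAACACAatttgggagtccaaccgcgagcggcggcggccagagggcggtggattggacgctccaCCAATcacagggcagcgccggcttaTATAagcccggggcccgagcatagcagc
CCAAT lay 53 to 57 bases and TATA 28 to 31 bases before the start in all 6 stretches. The H1 box, an element named for its place in H1 promoters, began 105 to 119 bases before the start in 5 of the 6, and these letters are not in the HIST1H1A stretch. In the last 130 bases of all 35116 promoters of full length, read on the gene strand, AAACACA was present in 1.13%, CCAAT in 11.6% and TATA in 15.9%. The 3 motifs do not overlap each other in the stretches. Over the 250 bases before the start and on both strands, all 6 genes held each motif, against 4.82%, 32.0% and 27.1% of all promoters. HIST1H1B and HIST1H1T have the same elements as HIST1H1C, so these letters do not separate genes with enriched SLBP peaks from genes without.

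SLBP precipitation enriched HIST1H1C, HIST1H1E and HIST1H1D in all 4 libraries. Of the 16, 11, 22 and 17 SLBP peaks in the 6 windows in replicates 1 to 4, 15, 11, 20 and 17 were enriched. As shares of all peaks in each list, enriched peaks made 1.23%, 1.27%, 1.7% and 2.33% of SLBP replicates 1 to 4, 7.95% and 7.66% of RBFOX2 replicates 1 and 2, and 0.18% of IgG. Of 7 peaks in the H1 windows in each RBFOX2 library, 0 were enriched, and of 4 in IgG, 0 were. Counts this small allow shares of up to 41.0% in each RBFOX2 library and 60.2% in IgG (upper ends of 95% intervals). These intervals treat the peaks of a library as independent. The peaks came from only 3 genes in each RBFOX2 library and 2 in IgG, so the limits are rough. The enriched share was 96.2% ± 4.6 (SD, n = 4) in SLBP and 0% in both RBFOX2 libraries (two-sided exact permutation test over 4 and 2 libraries, p = 0.133, which is the lowest value possible here). A locus is often split into touching peaks, so numbers of peaks are not numbers of sites: with touching peaks merged the SLBP libraries held 7, 3, 6 and 6 enriched sites.

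**Figure D1:**
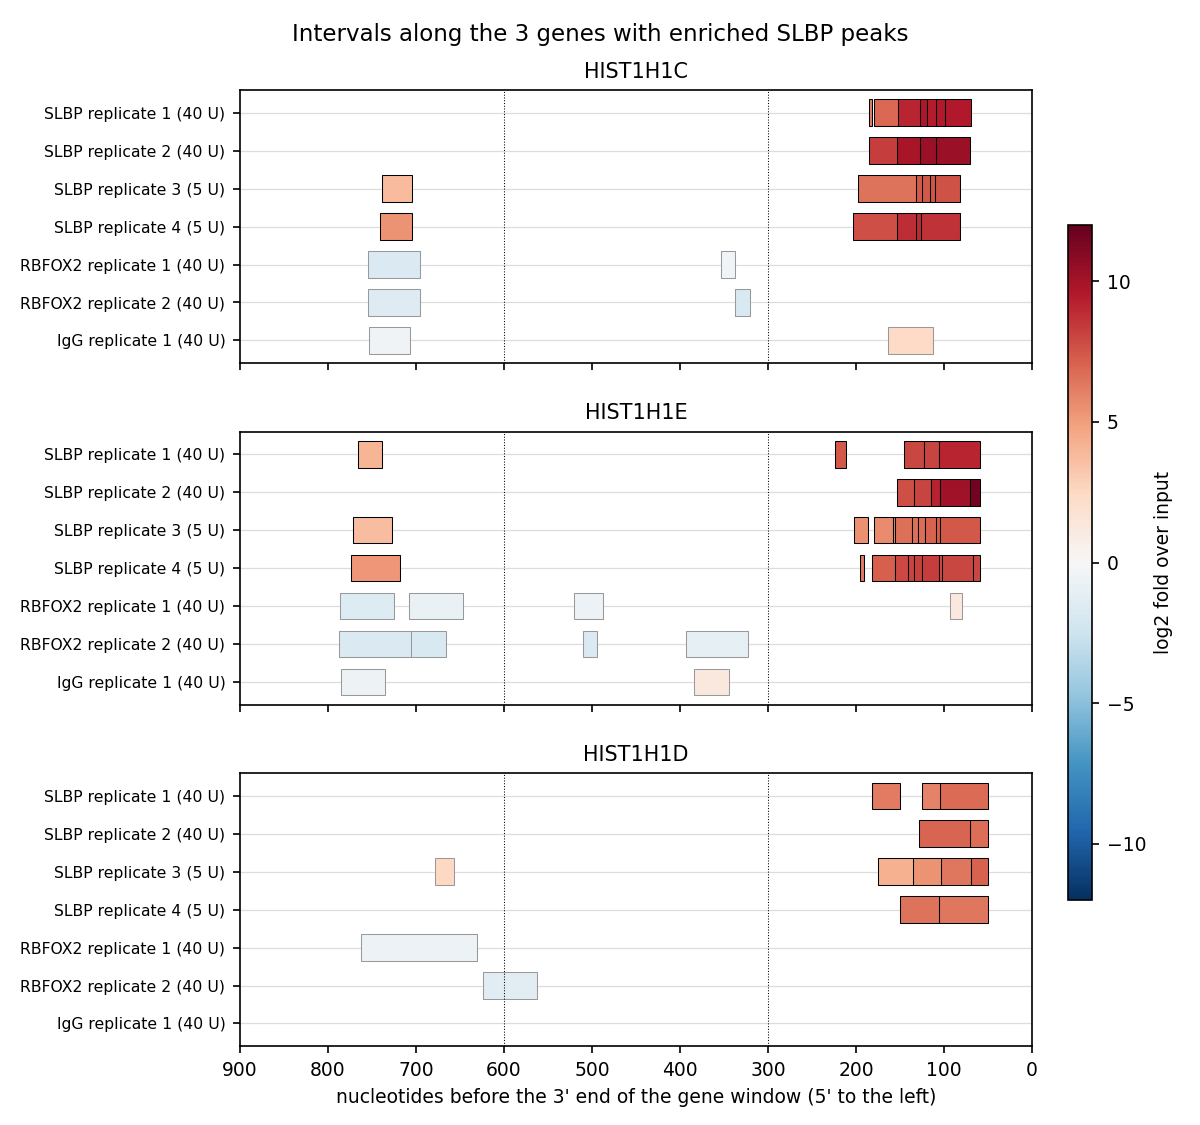
Every peak of the 7 libraries along the windows of HIST1H1C, HIST1H1E and HIST1H1D, with nucleotides before the 3′ end of the window on the x axis (5′ to the left), 1 row per library with its RNase I amount, and colour for the authors' log2 fold over input. Dark outlines mark enriched peaks, grey outlines the others, and dotted lines divide each window into 3 parts of 300 nt. All but 6 of the SLBP peaks drawn lie in the last 224 nt of the windows, while most RBFOX2 and IgG peaks lie further 5′.

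HIST1H1C had the highest mean of the 4 genes with an SLBP peak. The highest log2 fold in its window was 9.71, 10.38, 7.60 and 8.94 in SLBP replicates 1 to 4, −0.45 and −1.52 in RBFOX2 replicates 1 and 2, and 2.43 in IgG. Every SLBP value lay above every other value. That held at all 43 HIST1 sites enriched in all 4 SLBP libraries (described below), wherever RBFOX2 or IgG had a peak. Choosing sites by SLBP enrichment favours this order. The mean was 9.16 ± 1.19 (SD, n = 4) for SLBP and −0.99 ± 0.76 (SD, n = 2) for RBFOX2, a log2 difference of 10.14 (exact permutation p = 0.133, two-sided, the same after Benjamini-Hochberg adjustment over 3 genes). All 22 SLBP peaks of this gene were enriched, and all 22 had the ceiling −log10 p of 400. Ranked by log2 fold among the enriched peaks of its own list, the top HIST1H1C peak stood at 3 of 284, 8 of 233, 26 of 289 and 13 of 236 in replicates 1 to 4. The IgG value came from a peak of 51 nt at 26056014 to 26056064, inside the stretch that SLBP enriched, with a −log10 p of 3.45.

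HIST1H1E was close behind. Its highest log2 fold was 9.13, 11.54, 7.43 and 8.26 in SLBP replicates 1 to 4, 1.22 and −1.09 in RBFOX2 replicates 1 and 2, and 1.23 in IgG. The SLBP values again did not overlap the others, and replicate 2 was the high one. The mean was 9.09 ± 1.77 (SD, n = 4) for SLBP and 0.06 ± 1.63 (SD, n = 2) for RBFOX2, a log2 difference of 9.02 (two-sided exact permutation test, p = 0.133). This gene held the most enriched SLBP peaks, 30, of which 27 were at the p-value ceiling. The other 3 were its highest in replicate 2, with log2 folds of 9.26, 10.15 and 11.54. Their −log10 p was 15.66, below the ceiling of 400 but a value at which the deposited −log10 p piles up. The p-values of the highest HIST1H1E peaks were thus not read as weaker than those at the ceiling. Its top peak ranked 16 of 284, 2 of 233, 35 of 289 and 30 of 236 among the enriched peaks of replicates 1 to 4. The RBFOX2 value above 0 belonged to a peak of 13 nt with a −log10 p of 0.82, and the IgG value to a peak with 1.79.

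HIST1H1D had lower and more even SLBP values. Its highest log2 fold was 6.77, 6.97, 7.05 and 6.49 in SLBP replicates 1 to 4 and −0.74 and −1.40 in RBFOX2 replicates 1 and 2, and the IgG list held no peak in its window. The mean was 6.82 ± 0.25 (SD, n = 4) for SLBP and −1.07 ± 0.47 (SD, n = 2) for RBFOX2, a log2 difference of 7.89 (two-sided exact permutation test, p = 0.133). Of its 12 SLBP peaks, 11 were enriched. None of the 11 was at the p-value ceiling (0 of 11), and 8 had the value 15.66, a pile-up of the deposited −log10 p whose origin none of the sources used here states. The p-values were thus not used to rank HIST1H1D against the other genes. Its top peak ranked 89 of 284, 128 of 233, 52 of 289 and 125 of 236 in replicates 1 to 4.

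HIST1H1T, the testis variant, had a peak in 2 of 4 SLBP lists and none was enriched (0 of 2). The log2 fold was 3.57 with a −log10 p of 1.98 in replicate 1 and 2.24 with 0.51 in replicate 3. The intervals, at 26107652 to 26107696 and 26107688 to 26107717, overlapped and lay near the 3′ end of the window. RBFOX2 and IgG had 0 peaks in this window. Just inside the enrichment limits stood a HIST1H1E peak at 3.71 and a HIST1H1C peak at 3.80, both in SLBP replicate 3. Just outside stood the HIST1H1T peak of replicate 1, by its p-value, and a HIST1H1D peak of replicate 3 at 2.44 with a −log10 p of 5.94, by its fold.

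HIST1H1A and HIST1H1B held 0 peaks in all 7 lists used here, enriched or not. Whether no peak was called there, or such rows are not among those analysed here, cannot be told from the lists. A window with no interval has no fold, so for these 2 genes nothing can be said of the level of binding. The nearest SLBP peak on the strand of HIST1H1A was 9026 to 9044 nt from its window in the 4 libraries. For HIST1H1B the nearest was 4224, 5592, 4224 and 25079 nt away in SLBP replicates 1 to 4. On the opposite strand, within 1 kb of the HIST1H1B window, SLBP replicates 1 to 4 had 5, 2, 1 and 1 peaks, all enriched, with highest log2 folds of 6.16, 6.95, 5.96 and 7.84. In the RefSeq gene order of GRCh38.p14, HIST1H1B (H1-5) stands between H2AC16 and H3C11. Within the 6 windows themselves 0 peaks of any library lay on the opposite strand, and 1 further peak lay on the gene's strand within 1 kb of a window, a RBFOX2 replicate 2 peak 991 nt from that of HIST1H1E with a log2 fold of −1.27.

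**Figure D2:**
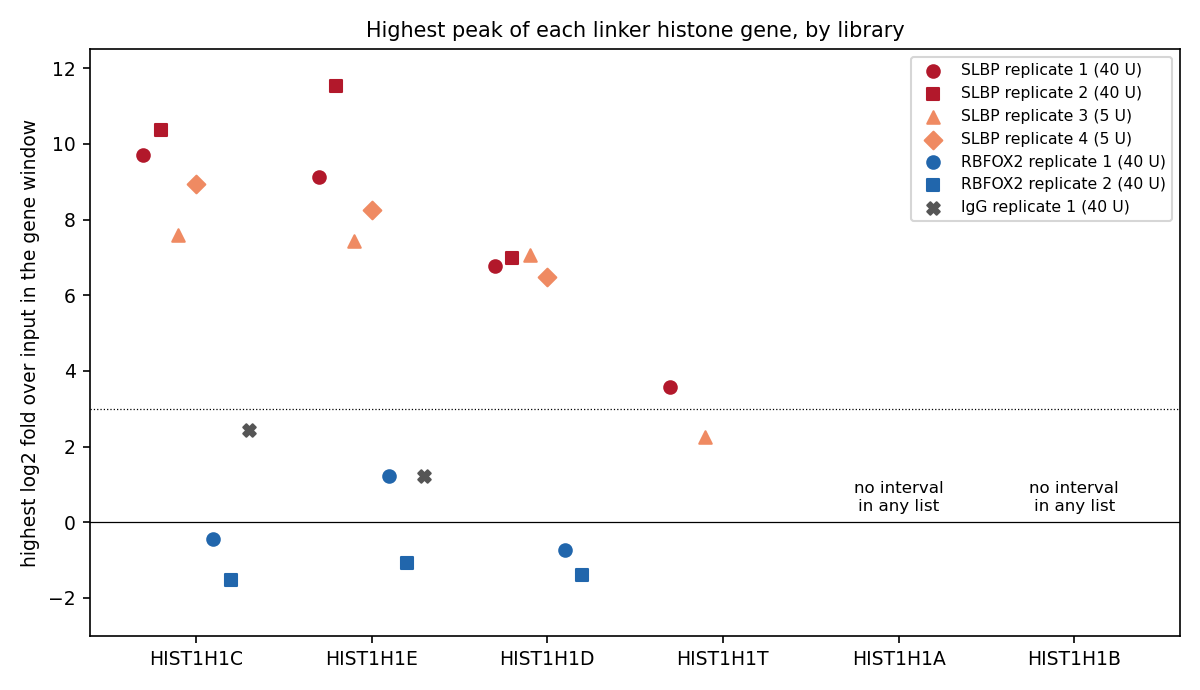
Highest log2 fold over input among the peaks of each gene window (y axis) for the 6 linker histone genes (x axis), 1 point per library, with RNase I amounts in the legend. The solid line marks 0 and the dotted line the log2 fold limit of 3. The 4 SLBP points of HIST1H1C, HIST1H1E and HIST1H1D lie between 6.49 and 11.54, and all RBFOX2 and IgG points lie at 2.43 or below.

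By mean top log2 fold the SLBP order was HIST1H1C, HIST1H1E, HIST1H1D and then HIST1H1T. The place of HIST1H1T rests on 2 libraries, with peaks that were not enriched. Within a library the top log2 fold of HIST1H1C exceeded that of HIST1H1D by 2.34 ± 1.25 (SD, n = 4), higher in 4 of 4 libraries, with a range of 0.55 to 3.41 (exact sign-flip permutation p = 0.125, two-sided, adjusted p = 0.188 over 3 pairs). HIST1H1E exceeded HIST1H1D by 2.27 ± 1.74 (SD, n = 4), also in 4 of 4 libraries (exact permutation p = 0.125, adjusted p = 0.188). The smallest p that 4 paired libraries can give is 0.125. In top log2 fold HIST1H1C and HIST1H1E did not differ beyond their spread. The difference was 0.07 ± 0.85 (SD, n = 4), HIST1H1C being higher in 3 of 4 libraries (exact permutation p = 0.875). It changed sign without replicate 1 (−0.10) or replicate 4 (−0.13). Without replicate 2 the lead of HIST1H1E over HIST1H1D was 1.50. The lead over HIST1H1D was smallest in replicate 3, at 0.55 for HIST1H1C and 0.38 for HIST1H1E. By the mean log2 fold over covered nucleotides HIST1H1C was above HIST1H1E in each SLBP library. Replicates 1 to 4 had 8.73, 9.69, 6.25 and 7.65 for HIST1H1C and 7.53, 9.30, 5.93 and 7.03 for HIST1H1E. That difference was not tested.

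SLBP peaks gathered at the 3′ ends. With each window divided into 3 equal parts and peaks placed by their midpoint, 60 of the 66 SLBP peaks lay in the 3′ part, 0 in the middle and 6 in the 5′ part. RBFOX2 peaks lay the other way: 1 of 14 in the 3′ part, 6 in the middle and 7 in the 5′ part. IgG had 1, 1 and 2 of its 4 peaks there. Of the 63 enriched SLBP peaks, 58 were in the 3′ part and 5 in the 5′ part. With touching peaks merged there were 22 enriched sites, 5 in the 5′ part and the rest in the 3′ part.

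The 3′ border of the enriched SLBP stretch fell on the same base in all 4 libraries for 2 of the genes. For HIST1H1E it was base 26157341, 59 nt before the end of the window, and for HIST1H1D base 26234451, 50 nt before it. For HIST1H1C it was 26055970 and 26055972 in replicates 1 and 2 (40 U) and 26055983 in both replicates 3 and 4 (5 U). From there the enriched peaks of the 3′ part reached 114 to 121 nt upstream in HIST1H1C, 94 to 165 nt in HIST1H1E and 78 to 132 nt in HIST1H1D. Bases enriched in all 4 libraries spanned 26055983 to 26056085 in HIST1H1C (103 nt), 26157255 to 26157341 in HIST1H1E (87 nt) and 26234451 to 26234525 in HIST1H1D (75 nt). Neither RBFOX2 library had a peak in the first or the last of these spans. In that of HIST1H1E only RBFOX2 replicate 1 had one, the 13 nt peak described above.

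The peak at the 3′ border was the highest of the 3′ part in 3 of 4 SLBP libraries for HIST1H1E, 2 of 4 for HIST1H1D and 1 of 4 for HIST1H1C. In SLBP replicate 2 the touching HIST1H1E peaks, read from 5′ to 3′, had log2 folds of 7.72, 8.12, 9.26, 10.15 and 11.54. In replicate 1 the 3 nearest the border of HIST1H1E had 7.97, 8.12 and 9.13. In replicate 3 the 9 peaks of the HIST1H1E 3′ part ran between 5.45 at the 5′ side and 7.43 at the border. Replicate 4 was flatter near the border, with 8.26 at 26157276 to 26157294 and 8.01 in the last 8 nt. In HIST1H1C replicate 1 had 6.10 at the 5′ side of the stretch and 9.62 at the border, with the highest peak, 9.71, between them at 26056020 to 26056027.

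A weaker SLBP signal lay near the 5′ end of HIST1H1E and HIST1H1C. In HIST1H1E the peak had a log2 fold of 4.05 in replicate 1, 3.71 in replicate 3 and 5.25 in replicate 4, at about 26156627 to 26156682, and replicate 2 had none there. In HIST1H1C it had 3.80 and 5.43 in replicates 3 and 4, at 26056606 to 26056641, and replicates 1 and 2 had none there. In HIST1H1D a peak of replicate 3 in the 5′ part had 2.44 and was not enriched. The same places carried peaks with the other antibodies. All 5 enriched SLBP peaks of the 5′ parts overlapped a peak of both RBFOX2 libraries and of IgG, by 27 to 56 nt. Those RBFOX2 and IgG peaks had log2 folds below 0: at HIST1H1C they were −1.69, −1.52 and −0.51 in RBFOX2 replicates 1 and 2 and IgG, and at the HIST1H1E start −1.63, −1.75 and −0.60.

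Where a library had peaks in both end parts of a gene, the 3′ part was higher. The highest log2 fold in the 3′ part minus that in the 5′ part, averaged over the genes with both, was 5.08, 4.05 and 3.26 in SLBP replicates 1, 3 and 4, resting on 1, 3 and 2 genes. The mean was 4.13 ± 0.91 (SD, n = 3; exact sign-flip permutation p = 0.25, two-sided, the smallest 3 libraries can give). RBFOX2 replicate 1 had a difference of 2.00 at HIST1H1E and IgG one of 2.94 at HIST1H1C. Each rests on 1 gene and on peaks that were not enriched, with 3′ log2 folds of 1.22 and 2.43. RBFOX2 replicate 2 had no peak in the 3′ part of any H1 window. A higher 3′ part was thus seen outside SLBP, but only between peaks that were not enriched.

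RBFOX2 peaks in the H1 windows lay mostly below input. In RBFOX2 replicates 1 and 2, 6 of 7 and 7 of 7 H1 peaks had a log2 fold under 0, against 32.6% and 31.0% of all peaks in those lists. In the rest of the HIST1 window, chromosome 6 from 26 to 28 Mb, 64.3% and 77.8% of the RBFOX2 peaks lay below input. In IgG the count was 2 of 4 H1 peaks, against 10.7% of its list and 23.1% of the other HIST1 peaks. None of the SLBP H1 peaks lay below input (0 of 66), against 7.02%, 9.45%, 23.4% and 17.0% of the lists of replicates 1 to 4. The other HIST1 peaks were alike in this, with 0%, 0%, 0.44% and 0% below input in SLBP replicates 1 to 4. These shares rest on few H1 peaks in RBFOX2 and IgG and were not tested.

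The SLBP libraries made with more RNase I were the higher ones at HIST1H1C and HIST1H1E. Both 40 U libraries had higher top values than both 5 U libraries for HIST1H1C, by 1.77 in log2 (mean 10.04 at 40 U and 8.27 at 5 U), and for HIST1H1E, by 2.49 (10.33 at 40 U and 7.85 at 5 U). Each had an exact permutation p of 0.333 (two-sided, 2 against 2 libraries), the lowest possible, and an adjusted p of 0.5. For HIST1H1D the 40 U and 5 U values overlapped, with a difference of 0.10 (exact permutation p = 1). Left without replicate 2 or replicate 4, that small difference changed sign, and by the mean over covered nucleotides it was 0.87. Without replicate 3 the HIST1H1C difference was 1.11, and without replicate 2 the HIST1H1E difference was 1.28. The median log2 fold of all enriched peaks in the list was 5.82 and 7.17 in replicates 1 and 2 (40 U) and 5.28 and 6.59 in replicates 3 and 4 (5 U), so over whole lists the amounts overlapped. Some HIST1 sites outside the H1 windows also had both 40 U values above both 5 U values, and others did not. That order was thus not particular to HIST1H1C and HIST1H1E. RNase I amount changes together with replicate number and cannot be told apart from it.

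Enriched peaks covered more of HIST1H1E and HIST1H1C in the 5 U libraries, a difference that was not tested. Enriched peaks covered 127 and 94 nt of HIST1H1E at 40 U and 182 and 183 nt at 5 U. They covered 114 and 114 nt of HIST1H1C at 40 U and 150 and 157 nt at 5 U. For HIST1H1D the values overlapped, at 107 and 78 nt at 40 U and 125 and 100 nt at 5 U. Enriched peaks in the 5′ part numbered 1 and 0 at 40 U and 2 and 2 at 5 U. In HIST1H1C they held 34 and 36 nt at 5 U, which left 116 and 121 nt in the 3′ part at 5 U, close to the 114 and 114 nt at 40 U. In HIST1H1E the 3′ part alone held 100 and 94 nt at 40 U and 137 and 127 nt at 5 U. The number of enriched HIST1H1E peaks was 5 in both 40 U libraries and 10 in both 5 U libraries. Of the enriched length of the whole list, the H1 windows held 3.82% and 4.05% at 40 U and 5.24% and 5.32% at 5 U. Coverage of the other HIST1 sites was not compared between RNase I amounts.

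Among the SLBP sites of the HIST1 window, HIST1H1C and HIST1H1E stood near the top. Bases enriched in all 4 SLBP libraries and joined within 100 nt made 43 sites in the HIST1 window, 3 of them in the H1 windows. By mean top log2 fold HIST1H1C ranked 3, HIST1H1E 5 and HIST1H1D 29 of 43. The 40 sites elsewhere had means of 4.22 to 9.84 with a median of 7.69. By the lowest of the 4 libraries HIST1H1C ranked 5, HIST1H1E 9 and HIST1H1D 26. The ranks differed between libraries: HIST1H1E was at 9, 2, 16 and 9 and HIST1H1C at 3, 6, 13 and 4 in replicates 1 to 4. The spans of the 3 H1 sites, 75 to 103 nt, lay around the median of 95 nt elsewhere.

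**Figure D3:**
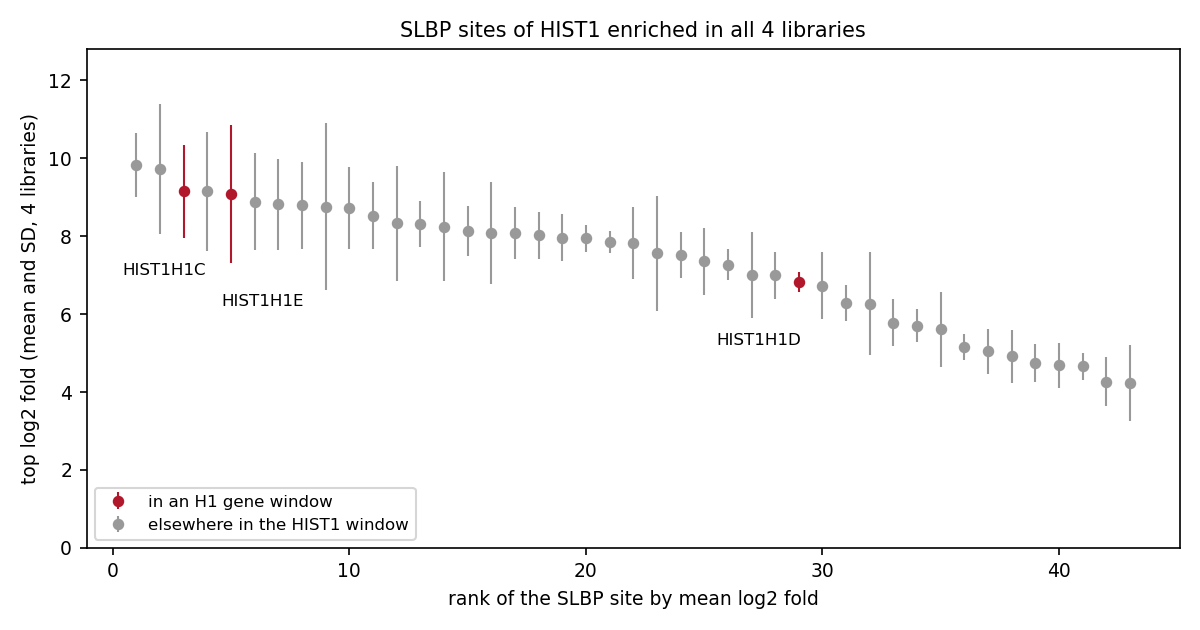
Mean top log2 fold over the 4 SLBP libraries, with SD as error bars (y axis), of the 43 HIST1 sites enriched in all 4, in order of that mean (x axis). Sites in an H1 window are coloured and named; HIST1H1C and HIST1H1E stand at ranks 3 and 5 and HIST1H1D at 29, with a small SD of 0.25.

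The sites most like each H1 gene were those at the smallest Euclidean distance in top log2 fold over the 4 SLBP libraries. For HIST1H1C they were 26188955 to 26189009 (minus strand, distance 0.71), 27101132 to 27101313 (plus, 0.93) and 26250377 to 26250475 (minus, 1.36). For HIST1H1E they were 27114142 to 27114352 (minus, 1.33), 26204872 to 26205247 (plus, 1.36) and again 26188955 to 26189009 (1.44). For HIST1H1D they were 26199030 to 26199154 (minus, 1.02), 26104390 to 26104496 (plus, 1.34) and 26225764 to 26225822 (plus, 1.47). These are coordinates on hg19 chromosome 6, to which no gene is assigned here.

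Peak by peak, the H1 windows were higher than the rest of HIST1 in every SLBP library. The median log2 fold was 7.73, 9.26, 6.58 and 7.90 for H1 peaks and 5.79, 7.28, 5.14 and 6.55 for the other HIST1 peaks of replicates 1 to 4. The difference was 1.67 ± 0.33 (SD, n = 4), positive in 4 of 4 libraries (exact sign-flip permutation p = 0.125, two-sided, the smallest possible). Most of these H1 peaks are pieces of HIST1H1C and HIST1H1E. With touching peaks merged, a choice made after the data were seen, the difference was 1.31, 3.90, 0.05 and 0.74 in replicates 1 to 4, so in replicate 3 it was near 0. Its mean was 1.50 ± 1.68 (SD, n = 4), and 0.70 without replicate 2. The enriched share of SLBP peaks was 96.2% ± 4.6 in the H1 windows and 92.5% ± 1.7 in the rest of HIST1 (SD, n = 4 each). In RBFOX2 replicates 1 and 2 the H1 medians were −0.74 and −1.75 and those of the rest −0.27 and −1.02; in IgG they were 0.36 and 0.41.

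**Figure D4:**
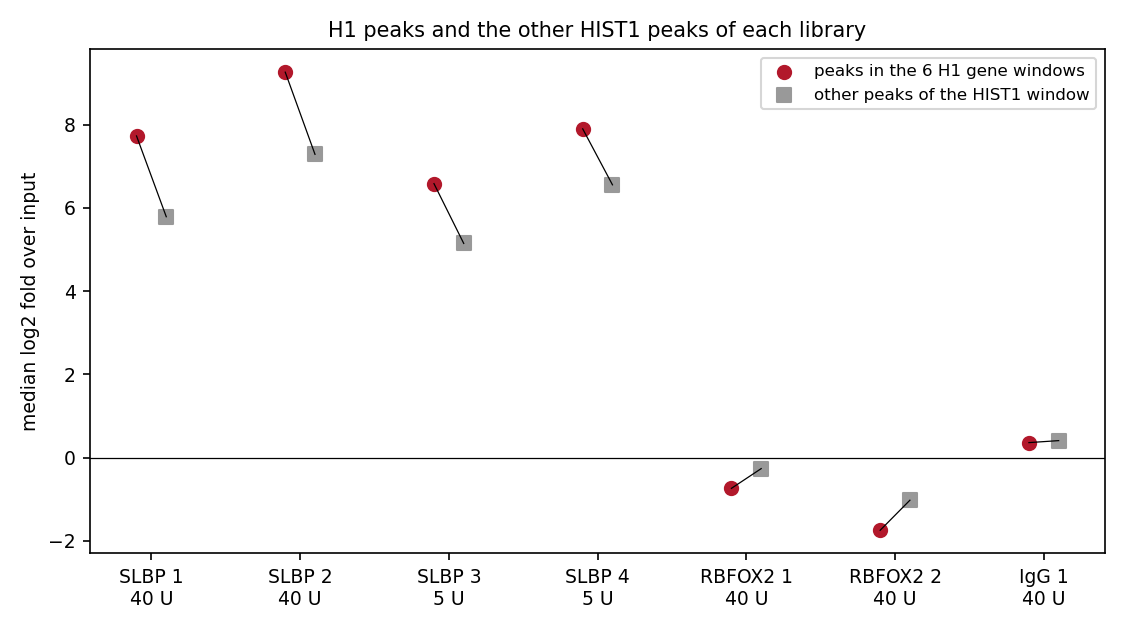
Median log2 fold over input (y axis) of the peaks in the 6 H1 windows (circles) and of the other peaks of the HIST1 window (squares) in each library (x axis, with RNase I amount). The H1 median is the higher of the pair in the 4 SLBP libraries, by 1.34 to 1.97, and the lower in both RBFOX2 libraries.

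H1 peaks made up 5.28%, 4.72%, 6.92% and 7.20% of all enriched peaks in SLBP replicates 1 to 4, a mean of 6.03% ± 1.22 (SD, n = 4). Measured in bases they made up less, 3.82%, 4.05%, 5.24% and 5.32% of the enriched length. The enriched H1 peaks were narrower pieces, with median widths of 23, 20, 19.5 and 21 nt against 27, 25, 24 and 29 nt for the other enriched HIST1 peaks.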

How the data were processed

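The 7 peak lists of eCLIP libraries from 293T cells were used. The 7 inputs entered through the authors' folds, and 10 further RBFOX2 samples were not analysed here. In the lists as deposited, column 4 is the authors' −log10 p-value and column 5 their log2 fold of precipitated over input RNA; the range of values and the list names gave both units. The build was hg19, with cutadapt, STAR, GATK, Picard and SAMtools, per the submitters' processing notes; for the peak caller and the tools' versions: not given in the sources used here. Folds of different lists stand on scalings not known to match. The p-values were used to filter and describe peaks.

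Library values were tested by exact permutation, two-sided (Python 3.11.15, numpy 2.4.6, pandas 2.3.3), and both this test and the counting of peaks in windows were tested on simulated data. All 6 H1 genes are named; sites like them were taken by the rule given with them. Alternatives were looser and stricter limits, overlap, wider windows, merged peaks, other gene values, 2 parts per window, each library left out and a replicate block. Members, windows and limits were chosen with earlier results of these data known. No hg19 sequence was used, so the stem-loops themselves are not shown.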

Additional observations from a re-analysis of the deposited data

How the results depend on the processing

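Over 114 alternatives of 18 values, 108 kept direction and, for counts, size, 2 moved and 4 changed sign. For tested values only a change of sign could be recorded, so the HIST1H1D difference between RNase I amounts counted as kept at 0.10 and at 0.87. Some alternatives could not change a value: without replicate 2 the 3′ minus 5′ difference stayed 4.13, as that library did not enter it. The tally is thus a weak check. The number of enriched H1 peaks per SLBP library, 15.75, was 5.5 with touching enriched peaks merged and 14.33 to 17.33 when a library was left out; the looser p gave 15.75, the looser fold (at least 2) 16 and the stricter limits (at least 8 and 4) 15.25. HIST1H1C, HIST1H1E and HIST1H1D stayed enriched in all SLBP libraries under every alternative tried, giving a count of 3. Only the stricter limits and the stricter overlap rule could have lowered this count. The other alternatives can only keep or add genes. Without replicate 2 or without replicate 4 the 40 U minus 5 U difference of HIST1H1D became −0.0023 and −0.18 (range −0.18 to 0.38). Without replicate 1 or replicate 4 the HIST1H1C minus HIST1H1E difference became −0.10 and −0.13 (range −0.13 to 0.48). Peaks outside the windows on the gene's strand numbered 1 within 1 kb and 0 within 500 nt, a flank added after the data were seen, as were covered means for SLBP against IgG and 2 parts per window for the 5′ counts. SLBP and RBFOX2 share only the numbers 1 and 2, and nothing in the labels pairs them. With a replicate block on these pairs the SLBP minus RBFOX2 log2 difference was 11.03 for HIST1H1C, 10.27 for HIST1H1E and 7.94 for HIST1H1D, and that in enriched share was 96.9 percentage points (exact permutation p = 0.5, the smallest possible). The exact permutation tests used cannot give a p under 0.05 with these numbers of libraries, and no other test was run; with no read counts, the error of a single fold is unknown.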
